A study of Mus musculus with 18 samples.

Results

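A set of 10 genes that drive or oppose the epithelial-mesenchymal transition (EMT) were followed through bulk RNA-seq libraries of mouse pancreatic tumour cells with and without labelled loss of Mcu, which forms the pore of the mitochondrial calcium uniporter. The 6 genes on the transition side were Snai1, Snai2, Zeb1, Zeb2, Twist1 and Hmga2, and the 4 on the epithelial side were Ovol1, Grhl2, Esrp1 and Esrp2. They were taken by symbol from a table of 35642 genes, and all 10 were found. The series title names regulation of epithelial plasticity by mitochondrial calcium as its subject.

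The cells were lines 1151 and 2838, derived from tumours of KPCY mice, in which Pdx1-Cre switches on Trp53 R172H from its LSL allele and a Yfp reporter in pancreatic cells. All cells grew in DMEM with serum and were untreated. Line 1151 carried floxed Mcu deleted with Cre, and 1 arm held an empty vector (KO-labelled here) while the other re-expressed MCU (MCU-labelled here). Both 1151 arms were kept in puromycin. In line 2838, clones 17 and 42 were labelled CRISPR knockout of Mcu (KO-labelled) and clones 15 and 22 wild type (WT-labelled). An empty vector is named for clones 15 and 22 and for neither KO-labelled clone. Each of the 6 groups had 3 libraries. Each 2838 group was 1 clone and each 1151 arm 1 cell population. Whether libraries of a group were grown apart is not stated, so the p-values may reflect technical spread alone. The labels give batch 1 for line 1151 and batch 2 for line 2838, so line and batch cannot be told apart and no level was tested between the lines.

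In EMT, epithelial cells loosen their junctions and take on a migratory, mesenchymal state. The zinc-finger proteins Snai1, Snai2, Zeb1 and Zeb2 and the basic helix-loop-helix protein Twist1 repress epithelial genes such as Cdh1, many of them by binding E-box sequences, and Hmga2 is an architectural chromatin protein that raises Snai1 and Twist1 in several tumour models. On the other side, Ovol1 and Grhl2 are transcription factors that hold down Zeb1 and keep junction genes on, and Esrp1 and Esrp2 are RNA-binding proteins that direct epithelial splicing. MicroRNAs join the circuit. The let-7 family is a known repressor of Hmga2, and the miR-200 family and the Zeb genes repress each other.

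The matches to these microRNAs are shown because genes they are known to target are among the 10 followed here. The microRNAs themselves were not analysed here. Mature sequences from RefSeq (GRCm38.p6) fall into 3 seed groups, with bases 2 to 8, the seed, in capitals.
mmu-let-7a-5p: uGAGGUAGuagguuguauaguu
mmu-miR-98-5p: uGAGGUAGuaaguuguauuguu
mmu-miR-200b-3p: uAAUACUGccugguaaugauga
mmu-miR-429-3p: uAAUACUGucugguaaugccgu
mmu-miR-200a-3p: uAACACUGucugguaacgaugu
mmu-miR-141-3p: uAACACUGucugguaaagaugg

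The longest annotated 3′ UTR of Hmga2 (3014 bases, GENCODE M21) holds 4 matches to the let-7 seed, CTACCTC, starting at bases 58, 1295, 1733 and 2591 after the stop codon. At least 1 such match occurs in 9.02% of 21020 mouse 3′ UTRs, and 4 or more in 12 of them (0.0571%). The capitals mark the match.
Hmga2 site at base 58: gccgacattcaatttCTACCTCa
Hmga2 site at base 1295: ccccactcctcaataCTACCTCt
Hmga2 site at base 1733: ctgatttgcaaggaaCTACCTCc
Hmga2 site at base 2591: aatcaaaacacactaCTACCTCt

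The longest 3′ UTR of Zeb2 (4941 bases) holds 5 matches to the seed that miR-200b and miR-429 share, CAGTATT, starting at bases 393, 458, 820, 905 and 1039. At least 1 such match occurs in 13.3% of the 3′ UTRs, and 5 or more in 6 of them (0.0285%). Zeb1 also holds 5. Zeb1 and Zeb2 each hold 4 matches to the miR-200a and miR-141 seed, CAGTGTT, which occurs in 17.2% of the 3′ UTRs. The first and last Zeb2 matches are shown.
Zeb2 site at base 393: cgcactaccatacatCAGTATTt
Zeb2 site at base 1039: tcatactgtagtgtaCAGTATTa

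Among the other transition genes, Snai1 holds 2 let-7 matches and 1 miR-200b match, Snai2 holds 1 match to each miR-200 seed, and Twist1 holds none of the 3. Of the 4 epithelial genes, Grhl2 holds 1 match to the miR-200a seed and the others hold none. These are matches of letters, not shown sites of repression, and the shares over all 3′ UTRs take no account of their length.

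Promoter windows of 300 bases, from 250 before the transcription start, were examined for 4 of the 10 genes (Snai1, Zeb2, Twist1 and Hmga2, 7 windows). Promoters of the other genes were not examined, which does not mean that they have no window. The E-box CAGGTG, searched on both strands, occurs in 20.2% of 32851 windows in the RefSeq table, and the variant CAGGTA in 12%. Of the 7 windows, the one of Snai1 holds a CAGGTG match, on the minus strand, and none holds CAGGTA. The Snai1 window is shown, since Snai-family proteins bind this E-box and Snai1 is known to act on its own promoter. It lies at chr2:167537945-167538244 on the plus strand (GRCm38.p6), and the match, in capitals, starts 126 bases before the transcription start.
Snai1 promoter: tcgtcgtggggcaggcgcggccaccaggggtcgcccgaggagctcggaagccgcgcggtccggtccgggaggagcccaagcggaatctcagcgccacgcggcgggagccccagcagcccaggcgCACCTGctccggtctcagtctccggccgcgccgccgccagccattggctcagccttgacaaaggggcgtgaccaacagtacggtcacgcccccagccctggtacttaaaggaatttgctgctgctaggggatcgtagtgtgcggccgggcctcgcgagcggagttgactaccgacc

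The libraries were checked against their labels before any comparison. The deposited values were TPM, a measure of transcript abundance, which correct for length, and library depth was therefore unknown. Levels of Mcu RNA went against the labels in line 1151 (13.3 to 16.6 TPM in the KO-labelled cells and 13.1 to 15.2 TPM in the MCU-labelled cells) and in clone 17. In line 2838 it stood at 113 to 122 TPM in clone 17 and 10.5 to 12.3 TPM in clone 42, against 59.3 to 96.3 TPM in the wild-type clones. RNA of an edited gene can persist, and vector-borne MCU may escape counting as mouse Mcu, but neither was tested, nor were the labels themselves. Every direction given here follows the labels as they stand. Replicate 3 of wild-type clone 22 stood apart, with 10760 genes at 1 TPM or more and an upper quartile of 3.73 TPM, against 11207 to 11507 genes and 6.36 to 7.85 TPM in the other libraries. Differences in line 2838 by label are therefore given with and without it. Keratins of simple epithelia were high in every group (Krt8 group means of 1589 to 2683 TPM), as was Vim (1702 to 2140 TPM), while Epcam, a surface protein that defines many epithelia, averaged at most 1.33 TPM in any group. Fibroblast markers summed to at most 1.05 TPM in any library over 9 genes, with 3 of the 9 listed at 0 in all 18 libraries.

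The 10 genes differed widely in level. Hmga2 was by far the highest, at 61.2 to 218.5 TPM over the 18 libraries, and only 705 genes in line 1151 and 1659 in line 2838 had a higher line mean. Esrp2 came next at 18.4 to 47.9 TPM, then Zeb1 at 5.13 to 19.4 TPM and Snai2 at 2.28 to 22.3 TPM. Zeb2 reached at most 5.93 TPM, Twist1 2.36 TPM and Snai1 1.49 TPM. The remaining epithelial genes were close to absent, with no library above 0.482 TPM for Grhl2, 0.158 TPM for Esrp1 or 0.0493 TPM for Ovol1. Their close relatives Ovol2 and Grhl3 were low as well, with group means of at most 0.215 and 1.49 TPM, and Grhl3 was listed at 0 in all 12 libraries of line 2838. Of the 4 epithelial genes, then, Esrp2 was the one measured well enough to compare.

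**Figure D1:**
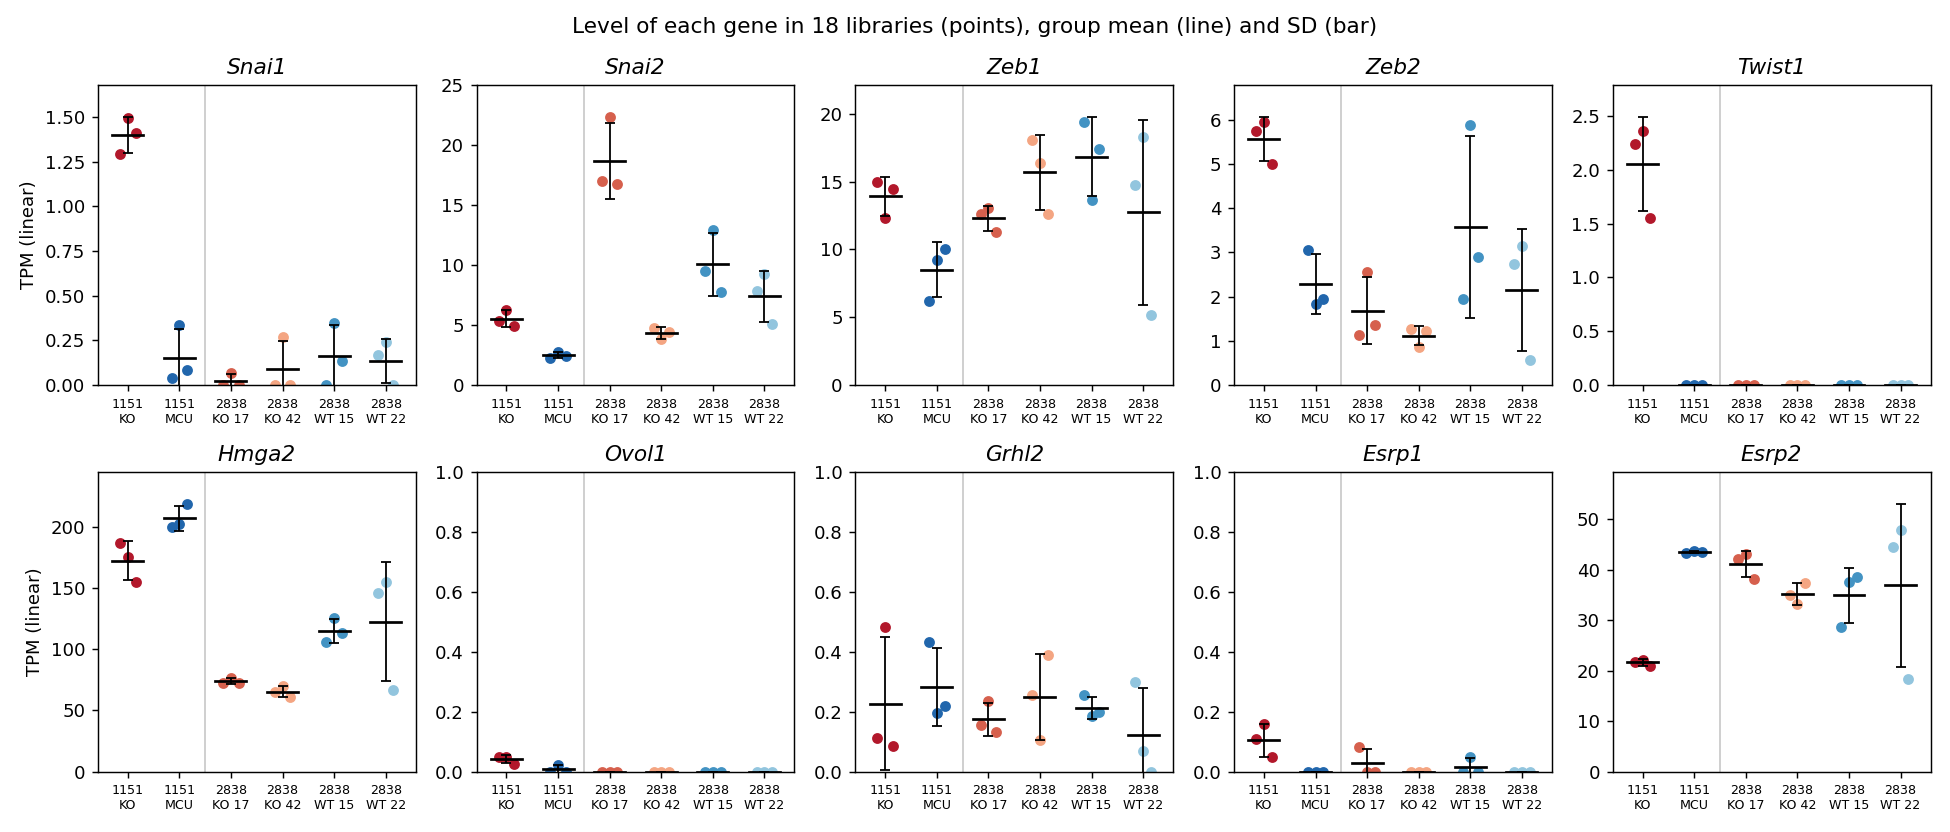
Level of each of the 10 genes in TPM (linear axes, which differ between panels) in 18 libraries. Points are libraries, the line is the group mean and the bar its SD (n = 3), cut at 0 where it would pass below; the grey line parts line 1151 from line 2838. Twist1 is above 0 in the 1151 KO-labelled cells and in no other group, Hmga2 lies at 155.1 TPM or more in line 1151, and Ovol1, Grhl2 and Esrp1 stay under 0.5 TPM throughout.

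In line 1151, the KO-labelled cells had higher Snai1, Snai2, Zeb1, Zeb2 and Twist1 and lower Hmga2 and Esrp2 than the MCU-labelled cells. Of the 10 genes, 7 reached 1 TPM in at least 3 libraries and were tested with limma. Snai1 and Twist1 entered only through the KO-labelled arm, where they are high, so their calls had to show a difference. The other 5 also passed an adjusted p of 0.05, 3 higher and 2 lower. Across all 11630 genes tested in this line 61% passed, 34% higher and 27% lower, so a share of calls this high was common to the whole table. The arms of the same 5 genes did not overlap in any library, against 67.2% of all genes with non-overlapping arms. For Snai1 and Twist1 the filter fixed this as well. In bulk RNA, fewer cells of a type and less RNA per cell cannot be told apart.

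Among the Snail proteins, Snai2 (chromosome 16, 14705852 to 14709385, plus strand, mm10) stood at 5.35, 6.30 and 4.93 TPM in the KO-labelled cells, against 2.28, 2.77 and 2.42 TPM in the MCU-labelled cells. All KO-labelled libraries were above all 3 others. On the log2(TPM + 1) scale the difference was 0.90 (SE 0.11, limma adjusted p = 5.03e-04). Snai1 (chromosome 2, 167538195 to 167542814, plus strand), whose promoter is printed above, stood at 1.29, 1.49 and 1.41 TPM against 0.0367, 0.336 and 0.0825 TPM in the MCU-labelled cells. The difference was 1.07 (SE 0.14, limma adjusted p = 5.71e-04), a call fixed by the filter, and the level in the KO-labelled cells was still low.

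The Zeb genes rose too. Zeb1 (chromosome 18, plus strand) had 15.0, 12.3 and 14.4 TPM in the KO-labelled cells and 6.23, 9.25 and 10.0 TPM in the MCU-labelled cells, a log2 difference of 0.67 (SE 0.17, limma adjusted p = 0.0120). The gap between the lowest KO-labelled library and the highest MCU-labelled one was small beside the range within the MCU-labelled arm. Zeb2 (chromosome 2, 44983632 to 45117395, minus strand) had 5.75, 5.93 and 4.99 TPM in the KO-labelled cells and 3.06, 1.83 and 1.95 TPM in the MCU-labelled cells, a log2 difference of 1.02 (SE 0.16, limma adjusted p = 0.0013). The arms were well apart.

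Twist1 (chromosome 12, plus strand) showed the sharpest contrast between groups. It had 2.24, 2.36 and 1.55 TPM in the KO-labelled libraries, against values listed at 0 in the MCU-labelled libraries, and it was listed at 0 in all 12 libraries of line 2838. No fold is given against a group listed at 0. Its paralogue Twist2 was measured in both arms, at 3.70 ± 0.54 TPM in the KO-labelled cells and 1.40 ± 0.347 TPM in the MCU-labelled cells (SD, n = 3 each). The log2 difference was 0.97 (SE 0.14, limma adjusted p = 0.00105).

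Hmga2 (chromosome 10, 120361275 to 120476469, minus strand) moved against the other transition genes. It stood at 186.6, 174.8 and 155.1 TPM in the KO-labelled cells and 199.4, 202.4 and 218.5 TPM in the MCU-labelled cells. The arms did not overlap, but the log2 difference was small, -0.27 (SE 0.080, limma adjusted p = 0.0242). Its call was lost with MCU-labelled replicate 2 left out (adjusted p = 0.0513), with MCU-labelled replicate 3 left out (0.0853) and with KO-labelled replicate 2 left out (0.0547). It was also lost when all 18 libraries shared one estimate of the spread (0.374), as was the call of Zeb1 (0.114).

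Esrp2 (chromosome 8, 106130319 to 106136974, minus strand), the splicing factor, was the clearest of the 10 genes. It stood at 21.8, 22.2 and 20.9 TPM in the KO-labelled cells and 43.4, 43.6 and 43.4 TPM in the MCU-labelled cells. The libraries of an arm lay close together beside the gap between the arms. The log2 difference was -0.97 (SE 0.053, limma adjusted p = 1.18e-05), and no single library left out ended the call (adjusted p at most 1.90e-04). Ovol1, Grhl2 and Esrp1 stayed under 0.5 TPM in both arms and were not tested.

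Most other regulators of the same splicing programme were higher in the KO-labelled cells of line 1151, where Esrp2 was lower. Of 12 RNA-binding regulators of EMT splicing other than the Esrp genes, 10 were tested, and 8 rose, none fell and 2 were not called (80% called, all higher, against 61% called and 34% higher over all genes), with a median log2 difference of 0.31 against 0.055 over all genes tested. The 3 largest rises were in Qk, the Quaking protein, which favours mesenchymal exons, Ptbp1, a repressor of exon inclusion, and Rbfox2, which also acts in mesenchymal splicing. Qk averaged 113 ± 21 TPM in the KO-labelled cells and 52.2 ± 3.73 TPM in the MCU-labelled cells (log2 difference 1.08, limma adjusted p = 4.31e-04). Ptbp1 averaged 541 ± 93.2 TPM in the KO-labelled cells and 308 ± 16.8 TPM in the MCU-labelled cells (0.80, adjusted p = 0.00162; SD, n = 3 each). Rbfox2 differed by less, 31.4 ± 1.24 TPM in the KO-labelled cells and 23.0 ± 1.28 TPM in the MCU-labelled cells (0.43, adjusted p = 0.00126). The remaining rises, of Rbm47, Mbnl1, Khdrbs1, Hnrnpm and Srsf1, were smaller (log2 differences of 0.21 to 0.34). The list was not divided by the direction of splicing that each protein favours, so the count of rises gives no such direction. Splice forms themselves were not analysed here, since the table has 1 value per gene.

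Transcription factors beyond the 10 showed a mixed picture in line 1151. Of 16 other EMT factors, 11 were tested, and 5 rose, 1 fell and 5 were not called (median log2 difference 0.25). The share called, 54.5%, was below the 61% of all genes. Fosl1, an AP-1 subunit, averaged 133 ± 12.8 TPM in the KO-labelled cells and 48.2 ± 5.10 TPM in the MCU-labelled cells (1.44, limma adjusted p = 3.38e-05), and Runx2, a Runt-family factor, 24.4 ± 1.25 TPM in the KO-labelled cells and 13.6 ± 1.70 TPM in the MCU-labelled cells (0.80, adjusted p = 4.46e-04). Of 16 other epithelial factors, 13 were tested, and 4 rose, 5 fell and 4 were not called (69.2% called, median 0.34). The 3 largest differences of that list were all falls. Tfcp2l1, a relative of the Grhl family, averaged 1.83 ± 0.143 TPM in the KO-labelled cells and 26.0 ± 1.85 TPM in the MCU-labelled cells (-3.26, adjusted p = 6.20e-07). Elf3, an epithelial Ets factor, averaged 6.48 ± 0.203 TPM in the KO-labelled cells and 26.7 ± 1.64 TPM in the MCU-labelled cells (-1.89, adjusted p = 2.97e-06). Klf4, a Krüppel-like factor of epithelia, averaged 22.3 ± 1.57 TPM in the KO-labelled cells and 73.2 ± 0.824 TPM in the MCU-labelled cells (-1.68, adjusted p = 3.04e-06). Within the Grhl family, which was singled out after its values were seen, Grhl1 rose (2.74 ± 0.138 TPM in the KO-labelled cells, 1.24 ± 0.35 TPM in the MCU-labelled cells) and Grhl3 fell (0.203 ± 0.127 TPM in the KO-labelled cells, 1.49 ± 0.366 TPM in the MCU-labelled cells; SD, n = 3 each).

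Among those tested, genes that the EMT factors are known to repress did not follow one direction in line 1151. Of 20 epithelial junction and polarity genes, 13 were tested, and 6 rose, 5 fell and 2 were not called. That was 84.6% called, against 61% of all genes, with a median log2 difference of 0.13. Epcam, Cldn3, Cldn7, Rab25, St14, Ap1m2 and Prss8 did not pass the filter in this line and are not in these counts. The largest were a rise of Cldn4, a tight junction claudin (6.15 ± 1.30 TPM in the KO-labelled cells, 0.259 ± 0.0823 TPM in the MCU-labelled cells), a fall of Tjp3, a tight junction scaffold (0.643 ± 0.161 TPM in the KO-labelled cells, 7.59 ± 1.00 TPM in the MCU-labelled cells), and a rise of Lamb3, a laminin chain (28.1 ± 3.64 TPM in the KO-labelled cells, 6.88 ± 0.278 TPM in the MCU-labelled cells; SD, n = 3 each). Their log2 differences were 2.49, -2.39 and 1.88 (limma adjusted p = 1.84e-05, 1.17e-05 and 1.21e-05). Cldn4 and Tjp3, like Grhl3, reached 1 TPM in 1 arm only. Cdh1, the target named above, was among the 5 that fell (-0.46, limma adjusted p = 0.00137). Of 15 mesenchymal genes, 11 were tested, and 7 rose, 1 fell and 3 were not called (median 0.56), so that 63.6% were called higher, against 34% of all genes. They were led by the matrix protein Fn1 (88.3 ± 5.43 TPM in the KO-labelled cells, 12.6 ± 0.669 TPM in the MCU-labelled cells), Cdh2, N-cadherin (150 ± 7.03 TPM in the KO-labelled cells, 35.5 ± 0.675 TPM in the MCU-labelled cells), and the matrix protein Sparc (148 ± 3.92 TPM in the KO-labelled cells, 70.0 ± 1.88 TPM in the MCU-labelled cells). The 1 that fell was S100a4 (-0.62, limma adjusted p = 1.04e-04), and Vim was not called (-0.016, adjusted p = 0.874).

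Genes known to work with Hmga2 or with the repressors were counted in the same way. The RNA-binding proteins Lin28a and Lin28b, which block let-7 maturation, were listed at 0 in line 1151, and Lin28b did not exceed 0.0593 TPM in any library. Of 10 genes of the let-7 and Hmga2 axis, 8 were tested, and 3 rose, 1 fell and 4 were not called (50% called, below the 61% of all genes), with a median log2 difference of 0.031. Igf2bp1, an RNA-binding protein and let-7 target, averaged 34.6 ± 2.17 TPM in the KO-labelled cells and 8.76 ± 0.922 TPM in the MCU-labelled cells (1.87, limma adjusted p = 7.11e-06), and its paralogue Igf2bp3 went the other way, with 1.33 ± 0.456 TPM in the KO-labelled cells and 6.44 ± 0.448 TPM in the MCU-labelled cells (-1.69, adjusted p = 1.21e-04). The third, Arid3a, a DNA-binding protein, rose by a log2 difference of 0.82 (adjusted p = 0.00105). Of 12 corepressor genes 6 rose and none fell (median 0.21), again 50% called, against 34% of all genes higher. They were led by Sin3a (0.93, adjusted p = 0.0136), Eed (0.41) and Ezh2 (0.40). Of 9 tested genes for enzymes that modify or degrade Snail and Zeb proteins, 6 rose and 1 fell (77.8% called, median 0.30), with Lats2 (1.42) and Btrc (0.60) higher and Pak1 (-0.88) lower.

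Of 10 genes that mark the pancreatic tumour epithelium, 9 were tested in line 1151, and 4 rose and 4 fell (88.9% called, against 61% of all genes). The largest differences were in Krt7 (2.55), Krt19 (-1.10) and the pancreatic factor Pdx1 (-0.95). Markers of other cell types were few in this line. Of 6 endothelial markers, Kdr was higher in the KO-labelled cells and Cdh5 in the MCU-labelled cells, and their sums were 8.48 to 9.08 TPM in the KO-labelled cells and 5.65 to 6.53 TPM in the MCU-labelled cells. Their part in the results was not tested. Mitochondrially encoded transcripts took 10.7% to 14.3% of the TPM in the KO-labelled cells and 11.5% to 12.8% in the MCU-labelled cells.

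**Figure D2:**
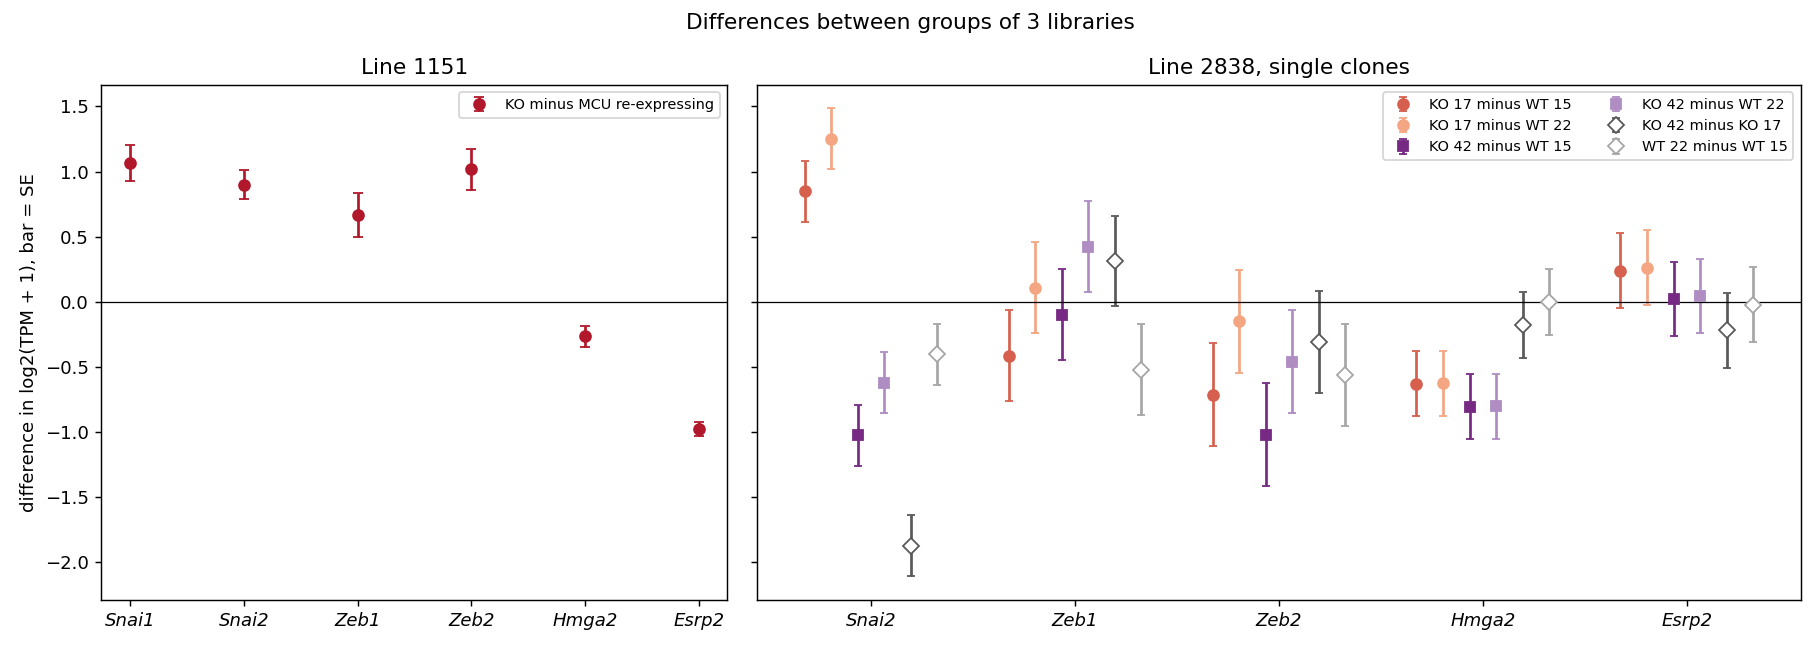
Differences in log2(TPM + 1) with SE between groups of 3 libraries: left, 1151 KO-labelled minus MCU-labelled cells for 6 genes (Twist1, listed at 0 in the MCU-labelled arm, is left out); right, pairs of 2838 clones, with filled marks for a KO-labelled minus a WT-labelled clone and open diamonds for clones that share a label. Snai2 differs in opposite directions for clones 17 and 42, while Hmga2 is lower in all 4 filled pairs (-0.63 to -0.80).

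In line 2838 the labelled loss of Mcu gave no call among the 10 genes, and the one that separated by label outside a single library was Hmga2. The filter left 5 genes, Snai2, Zeb1, Zeb2, Hmga2 and Esrp2. Tested with limma on the means of the 4 clones, 0 of 5 were called, against 9 of 11795 genes (0.0763%). At an unadjusted p under 0.05, Hmga2 passed, as did 662 of all genes (5.61%). Under a second rule, an adjusted p under 0.05 with one sign in each of the 4 KO-labelled against WT-labelled pairings, again 0 of 5 passed, against 1.01% of genes. The libraries of the KO-labelled and WT-labelled clones overlapped in all 5, against 5.04% of genes in which they did not.

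Hmga2 stood at 72.7, 76.6 and 72.5 TPM in clone 17 and 64.7, 70.3 and 61.2 TPM in clone 42, both labelled knockout. It stood at 106.2, 125.5 and 113.4 TPM in wild-type clone 15 and 145.9, 154.5 and 66.7 TPM in wild-type clone 22. The last value, from the library that stood apart, was the only one of the wild-type libraries to fall within the knockout range. The clone-mean difference was -0.72 (SE 0.20, limma unadjusted p = 0.00569, adjusted p = 0.521). In single pairs it was -0.63 for clone 17 against 15, -0.63 for clone 17 against 22, -0.80 for clone 42 against 15 and -0.80 for clone 42 against 22, with adjusted p of 0.152, 0.175, 0.0614 and 0.0662. The background of calls in these pairs was 10.7%, 6.49%, 12.3% and 10.3% of genes. Pairs of clones with the same label differed by less, -0.18 for clone 42 against 17 (adjusted p = 0.714) and -0.0013 for clone 22 against 15 (0.998, where 1.92% of genes were called).

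Without replicate 3 of clone 22, Hmga2 was called lower in all 4 pairs, with log2 differences of -0.63, -1.01, -0.80 and -1.19 (limma adjusted p between 9.86e-06 and 2.04e-04). Of all genes, 3.88% then passed that rule and 2.41% passed it as lower. It was also the only one of the 5 genes whose libraries did not overlap between labels, as was so for 5.36% of all genes on the lower side. The 2 wild-type clones then differed from each other as well, clone 22 being 0.38 above clone 15 (adjusted p = 0.0274). The clone-mean test still gave no call for Hmga2 (-0.91, adjusted p = 0.479), nor for any other gene (0%). Leaving out a whole clone leaves 1 clone in an arm, which the fit takes to vary like the others. The limma adjusted p of Hmga2 was then 0.0460 without clone 17 (-0.80), 0.257 without clone 42 and 0.9998 without either wild-type clone.

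Scaling the libraries by the median of ratios had a similar effect. Hmga2 then stood at 69.9 to 71.9 TPM in clone 17 and 60.5 to 68.2 TPM in clone 42, against 107.6 to 121.3 TPM in clone 15 and 96.0 to 144.3 TPM in clone 22. No KO-labelled library overlapped one labelled wild type, and Hmga2 passed in all 4 pairs with log2 differences of -0.66 to -0.95. Under this scaling the libraries did not overlap for 5.28% of all genes, 2.71% on the lower side, and 1.59% passed in all 4 pairs, 0.95% as lower.

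**Figure D3:**
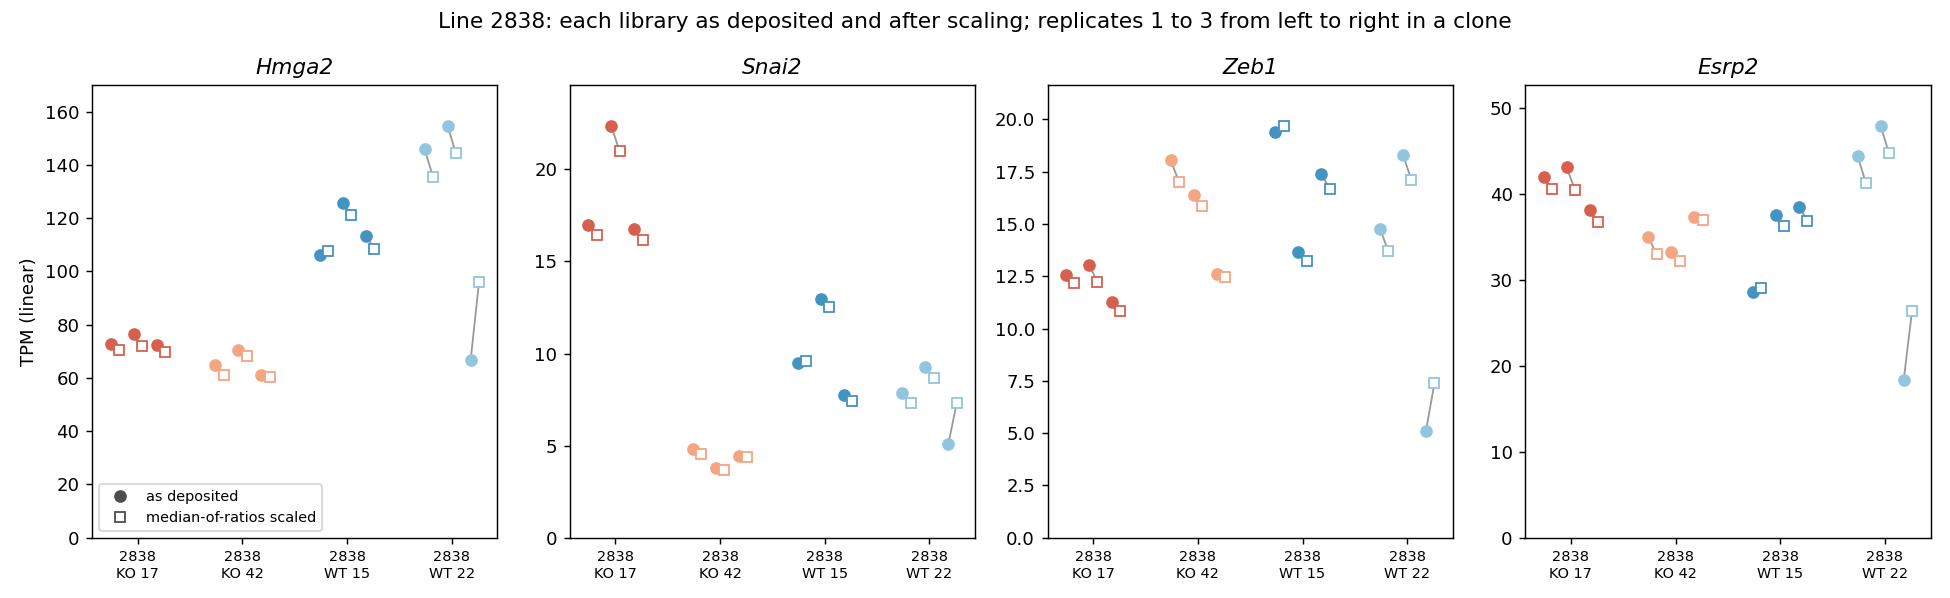
Level of Hmga2, Snai2, Zeb1 and Esrp2 in the 12 libraries of line 2838, as deposited (filled circles) and after median-of-ratios scaling (open squares), joined by a line for each library; axes are linear TPM and differ between panels. Replicate 3 of wild-type clone 22 moves most, with Hmga2 at 66.7 TPM as deposited and 96.0 TPM after scaling, above both KO-labelled clones.

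Snai2 differed between single clones in line 2838 without following the label. It stood at 17.0, 22.3 and 16.7 TPM in clone 17 and 4.80, 3.81 and 4.45 TPM in clone 42, against 9.48, 12.9 and 7.75 TPM in clone 15 and 7.85, 9.27 and 5.08 TPM in clone 22. Every library of clone 17 was above every wild-type library and every library of clone 42 was below them, so the clone-mean difference was near 0 (0.11, SE 0.52, limma adjusted p = 0.999), as it was without replicate 3 of clone 22 (0.0049). Libraries did not overlap for 46%, 29.3%, 43.7% and 31.9% of all genes in the pairs 17 against 15, 17 against 22, 42 against 15 and 42 against 22. The 2 KO-labelled clones differed from each other by -1.87 for clone 42 against 17 (adjusted p = 3.37e-04), where 17.2% of all genes were called. Clone 17 exceeded clone 15 by 0.85 (adjusted p = 0.0412) and clone 22 by 1.25 (0.00964), and clone 42 was below clone 15 by a log2 difference of -1.03 (0.0151) and below clone 22 by -0.62, which was not called (0.119).

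Most of these single pairs leaned on few libraries. The call of clone 17 against 15 was lost in 9 of 12 omissions of a single library (adjusted p up to 0.168). The excepted omissions were clone 15 replicate 2 and clone 22 replicates 2 and 3. The call of clone 17 against 22 was lost without clone 17 replicate 2 (0.0580), and that of clone 42 against 15 without clone 15 replicate 2 (0.0690) or clone 42 replicates 2 (0.0694) or 3 (0.0524). Without clone 22 replicate 3 all 4 pairs were called, at 0.85, 1.03, -1.03 and -0.84, still with opposite signs for the 2 KO-labelled clones, where 32.8%, 20.4%, 35.2% and 27.1% of genes were called. The difference between clones 42 and 17 held in every omission. Mcu RNA, like Snai2, was highest in clone 17 and lowest in clone 42, while the wild-type clones stood in opposite order for the 2 genes. Against its label, clone 17 was called above clone 15 for Mcu (0.65, limma adjusted p = 0.0328), but not above clone 22 (0.54, 0.0930). Clone 42 was called below both wild-type clones. In the pairs 17 against 15, 42 against 15 and 42 against 22, 10.7%, 12.3% and 10.3% of all genes were called.

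The Zeb genes and Esrp2 were not called in any pair of 2838 clones. Zeb1 had 12.6, 13.05 and 11.3 TPM in clone 17 and 18.04, 16.4 and 12.6 TPM in clone 42, against 19.4, 13.7 and 17.4 TPM in clone 15 and 14.8, 18.3 and 5.13 TPM in clone 22. The clone-mean difference was 0.0055 (SE 0.29), its sign turning under another scaling (-0.075) and without replicate 3 of clone 22 (-0.25), and the groups overlapped. Zeb2 had 1.13, 2.55 and 1.36 TPM in clone 17 and 1.26, 0.870 and 1.22 TPM in clone 42, against 1.93, 5.87 and 2.89 TPM in clone 15 and 2.74, 3.14 and 0.573 TPM in clone 22.

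For Zeb2 the clone-mean difference was -0.59 (SE 0.37, limma unadjusted p = 0.144, adjusted p = 0.999). Without replicate 3 of clone 22 it was -0.81 (adjusted p = 0.732), and clone 42 was called below clone 15 (-1.02, adjusted p = 0.0203, where 35.2% of genes were called). Esrp2 had 42.0, 43.1 and 38.1 TPM in clone 17 and 34.9, 33.2 and 37.3 TPM in clone 42, against 28.6, 37.5 and 38.5 TPM in clone 15 and 44.4, 47.9 and 18.4 TPM in clone 22. The groups overlapped and the clone-mean difference was 0.14 (SE 0.22, adjusted p = 0.999). Without replicate 3 of clone 22 it was -0.072 (adjusted p = 0.982), and Esrp2 was called lower in clone 42 than in clone 22 (-0.38, adjusted p = 0.0408, where 27.1% of genes were called). Snai1 did not exceed 0.346 TPM in any library of line 2838, and Twist1 and Ovol1 were listed at 0 in all 12.

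Among the wider lists, no gene passed the clone-mean test in line 2838. Under the rule of all 4 pairs, Tjp3 was higher and Fn1 was lower in the KO-labelled clones. Tjp3 averaged 36.7 ± 0.492 TPM in clone 17 and 33.8 ± 3.56 TPM in clone 42, against 22.5 ± 2.18 TPM in clone 15 and 21.1 ± 4.10 TPM in clone 22 (SD, n = 3 each). Fn1 averaged 29.7 ± 2.82 TPM in clone 17 and 17.5 ± 4.92 TPM in clone 42, against 193 ± 13.05 TPM in clone 15 and 96.5 ± 36.4 TPM in clone 22, a clone-mean log2 difference of -2.51 (limma adjusted p = 0.0516). Both differences had the opposite sign to those in line 1151. Without replicate 3 of clone 22 both genes still passed in all 4 pairs, with clone-mean differences of 0.60 for Tjp3 and -2.69 for Fn1 (adjusted p = 0.609 and 0.271). Of the epithelial factors, Klf4 and Elf3 had the lowest p without being called, with clone-mean differences of 0.70 and 0.55 (limma adjusted p = 0.561 and 0.807), and of the other EMT factors Sox4 (-0.40) and Prrx2 (-0.29, both adjusted p = 0.999). The lowest p among splicing regulators belonged to Rbm47 (0.41) and Srsf1 (0.34) and among genes of the let-7 axis to Igf2bp1 (0.76) and Arid3b (-0.36), none of them called. Among corepressors it belonged to Suz12 (0.30) and Bmi1 (0.26), and among turnover enzymes to Lats2 (0.34) and Pak1 (0.25), again with no call. Krt7, a keratin, was higher in all 4 pairs (clone-mean difference 0.95, limma adjusted p = 0.516), and also without that library (0.93).

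With replicate 3 of clone 22 left out, Sox4 (clone-mean difference -0.62) and Zfp281 of the other EMT factors passed as lower in all 4 pairs and the keratin Krt19 as higher, a rule that 3.88% of all genes then passed. The clone-mean difference of Klf4 was then 0.56, that of Elf3 0.53, Igf2bp1 0.52, Arid3b -0.51, Prrx2 -0.22 and Pak1 0.21. Values nearer 0 were seen for Srsf1 (0.13), Rbm47 (0.11), Lats2 (0.095) and Suz12 (0.029), and Bmi1 changed sign (-0.0089). None passed the clone-mean test.

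Cela1, an elastase of acinar cells, was not called in line 2838 but its libraries did not overlap between the labels, as was so for 5.04% of all genes. The clone-mean difference was -0.86 (limma adjusted p = 0.598), and -0.79 without replicate 3 of clone 22 (0.616). Of 7 acinar and endocrine markers measured, 5 were listed at 0 in all libraries, and the sum, nearly all Cela1, was 11.5 to 13.6 TPM in clone 17 and 9.21 to 12.2 TPM in clone 42, against 21.4 to 28.8 TPM in clone 15 and 16.4 to 24.3 TPM in clone 22. Its part in the Hmga2 values was not tested. Immune markers, mostly Cd68, summed to 3.46 to 6.20 TPM in the KO-labelled clones and 2.95 to 6.32 TPM in those labelled wild type.

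Whether the effects differed between the lines was asked with an interaction term over the 6 group means, where 137 of 12458 genes were called (1.1%) and none of the 7 genes tested was. The interaction is the 1151 difference less the 2838 difference on the log2(TPM + 1) scale. It was -1.12 for Esrp2 (SE 0.28, limma adjusted p = 0.229), 1.60 for Zeb2 (adjusted p = 0.288), 0.45 for Hmga2 (SE 0.22, 0.477), 0.66 for Zeb1 (0.629) and 0.79 for Snai2 (0.830). Snai1 (1.18, adjusted p = 0.0931) and Twist1 (0.0533) had the lowest adjusted p, but both entered this fit only through the 1151 KO-labelled cells. Their values are therefore no test of a difference between the lines. Twist1 crossed the threshold with clone 15 replicate 2 or clone 42 replicate 1 left out (limma adjusted p as low as 0.0483). It was listed at 0 in both of those libraries, and its own difference stayed at 1.60. No difference between the lines was thus shown by this test for any of the 7 genes. Among genes of the wider lists, the epithelial factors with the largest 1151 falls had interactions of -3.77 for Tfcp2l1 (adjusted p = 0.0823), -2.43 for Elf3 (0.0916) and -2.38 for Klf4 (0.0593), and Tjp3 had -3.06 (0.0549), none of them called. The only listed genes called were the endothelial markers Cdh5 (-2.56, limma adjusted p = 0.0355) and Kdr (2.41, 0.0447). Neither passed the filter in line 2838, so both entered this fit through line 1151.

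**Figure D4:**
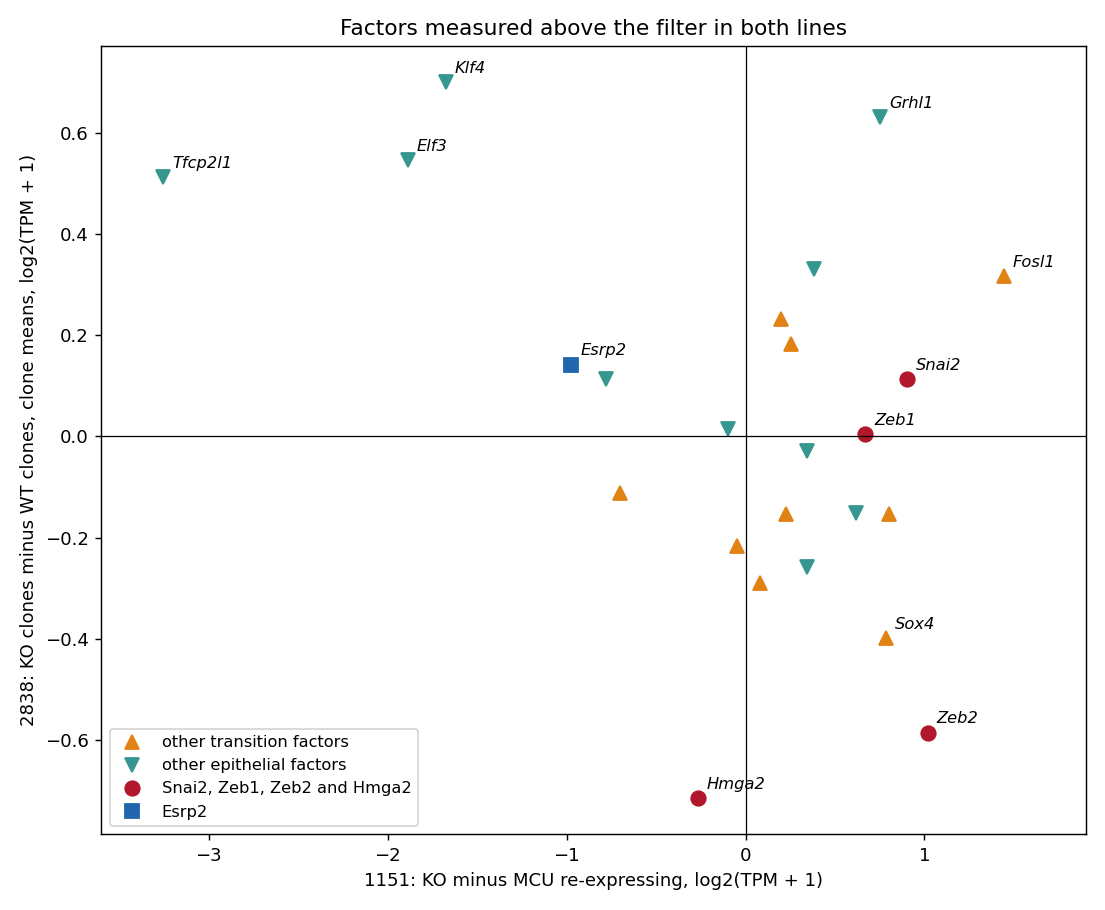
Log2(TPM + 1) differences of 24 transcription and splicing factors that passed the filter in both lines, 1151 KO-labelled minus MCU-labelled on the horizontal axis and 2838 KO-labelled minus WT-labelled clone means on the vertical axis; points are genes. Hmga2 lies below 0 on both axes (-0.27 and -0.72), Zeb2 lies at 1.02 and -0.59, and Elf3, Klf4 and Tfcp2l1 lie at -1.89, -1.68 and -3.26 in line 1151 but above 0 in line 2838, where no point was called.

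Side by side, each gene had its own order of groups. For Hmga2 both 1151 groups were above all of line 2838, and the KO-labelled arm was the lower one within each line. For Esrp2 the 1151 KO-labelled cells were lowest and the MCU-labelled cells highest on average, neighbouring clones of line 2838 overlapped, and 1 library of clone 22, at 18.4 TPM, lay below all others. For Snai2 clone 17 was highest and the 1151 MCU-labelled cells lowest, with the libraries of clone 15, clone 22 and the 1151 KO-labelled cells overlapping between neighbours. For Zeb1 the 1151 MCU-labelled cells were lowest on average, and the other 5 groups overlapped from neighbour to neighbour. For Zeb2 the 1151 KO-labelled cells were highest on average, but one clone 15 library reached 5.87 TPM, within their range, and no neighbours were separated.

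Genes with the most similar pattern were sought for the 2 genes that varied most within lines, Snai2 and Zeb2 (SD of 0.66 and 0.58 in log2(TPM + 1) centred within each line, over 18 libraries). Likeness was the root-mean-square difference in that centred value, over 11682 genes, and the libraries share their scaling, so it is a description. Closest to Snai2 were Igsf11, an immunoglobulin-family adhesion protein (0.22), Atf3, a stress-induced bZIP factor (0.26), and Il17ra, a receptor for interleukin-17 (0.26). Atf3 averaged 9.34 ± 1.67 TPM in the 1151 KO-labelled cells and 4.95 ± 1.25 TPM in the MCU-labelled cells. In line 2838 Atf3 averaged 29.9 ± 4.02 TPM in clone 17 and 10.0 ± 0.698 TPM in clone 42, against 13.1 ± 3.05 TPM in clone 15 and 12.6 ± 3.15 TPM in clone 22 (SD, n = 3 each). It was highest in clone 17 and lowest there in clone 42, which follows from its choice by likeness.

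Closest to Zeb2 were Sox4, a developmental transcription factor (0.25), Map3k12, a kinase of the JNK cascade (0.26), and Creb5, a bZIP factor (0.27). Sox4 averaged 63.8 ± 2.65 TPM in the 1151 KO-labelled cells and 36.6 ± 1.74 TPM in the MCU-labelled cells. In line 2838 Sox4 averaged 97.2 ± 5.91 TPM in clone 17 and 99.5 ± 7.34 TPM in clone 42, against 156 ± 30.9 TPM in clone 15 and 120 ± 54.0 TPM in clone 22 (SD, n = 3 each). Sox4 was picked for its likeness to Zeb2 in these libraries, so a shared pattern follows from the choice. Its log2 difference in line 1151 was 0.78, and it was not called on clone means in line 2838. In both genes replicate 3 of clone 22 was the lowest library of line 2838.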

How the data were processed

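RNA-seq of polyA RNA gave 18 libraries of lines 1151 and 2838, grouped by their labels. The authors deposited TPM values for 35642 genes, and the submitters' processing notes list Salmon, DESeq2 and mm10. Versions and annotation are not given in the sources used here. TPM keeps no depth, so no counting interval is given.

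Differences in log2(TPM + 1) were tested with limma 3.58.1 (R 4.3.3, trend in the variance prior), for genes at 1 TPM or more in at least 3 libraries of a fit, with Benjamini-Hochberg adjustment over all genes tested and calls at 0.05. Fold changes on this scale understate changes of low genes. Line 1151 was tested over 6 libraries, line 2838 on 4 clone means and in pairs of clones over 12 libraries, and the interaction on 6 group means. The fits were tested on simulated data.

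The 10 genes and the lists were chosen with earlier results of these data known. From each list the text names the called genes with the 3 largest differences, or, in line 2838, those passing in all 4 pairs or else the 2 with the lowest p. Sequences came from RefSeq (GRCm38.p6) and GENCODE M21 (mm10). Alternatives were another pseudocount (0.1), no filter, a mean of at least 5 TPM, 2 scalings, no trend, a replicate block, other units and libraries or clones left out. Scaling together with leaving out clone 22 replicate 3, and the microRNA seed matches, were added after seeing the data. One further allele of the mice is not reported here.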

Additional observations from a re-analysis of the deposited data

How the results depend on the processing

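Over 39 results and 813 alternatives, 689 kept their direction and their side of the threshold, or stayed within 1.5 times a count, 54 moved, 21 reversed, 29 newly passed and 20 no longer passed. In line 1151 the 7098 called genes became 4637 when all 18 libraries shared one spread, and the count of the 10 genes called, 7, became 3 with a mean of at least 5 TPM, which leaves fewer genes tested, and 4 to 7 with a library left out. Snai1 and Twist1 dropped out where a KO-labelled library was left out, since they then failed the filter.

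In line 2838 the clone-mean count of 9 called genes became 0 without a filter, 3 with median-of-ratios scaling, 4 with quantile normalization, 4 without a trend, 431 with libraries as the unit, 0 with scaling and clone 22 replicate 3 left out, and 0 to 398 with a library or clone left out. Of the 10 genes, the number called, 0, became 1 (Hmga2) with libraries as the unit and 0 to 1 with a library or clone left out. The clone-mean difference of Zeb1 became -0.075 with median-of-ratios scaling, -0.10 with quantile normalization and -0.23 with scaling and that library left out, and ranged from -0.26 to 0.27 with a library or clone left out. That of Esrp2 became -0.059 with scaling and that library left out and otherwise ranged from -0.072 to 0.26, and that of Snai2 ranged from -0.82 without clone 17 to 1.05 without clone 42.

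Genes passing in all 4 pairs numbered 119, and 188 with median-of-ratios scaling, 215 with quantile normalization, 501 with scaling and clone 22 replicate 3 left out, and 65 to 457 with a library left out. Of the 10 genes, Hmga2 then passed under both scalings (1, against 0), also with that library left out (1), and 0 to 1 did with other libraries left out. The Hmga2 difference of clone 22 against 15 became 0.13 and 0.029 under the scalings and 0.32 with scaling and that library left out, and ranged from -0.22 to 0.38 with a library left out. The 137 interaction calls became 1220 without a filter, 211 with quantile normalization, 0 without a trend and 0 to 158 with a library or clone left out. Of the 10 genes, 0 became 1 with a pseudocount of 0.1, 2 without a filter and 0 to 1 with a library or clone left out. The new calls were of Twist1 and, in 1 alternative, Snai1. In the main fit both genes entered only through 1 arm, as stated above, so these calls are not read as a difference between the lines. The Snai2 interaction ranged from -0.15 to 1.72. The cause of these changes was not tested.

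Replicate numbers did not pair the samples. Deviations of same-numbered libraries correlated at -0.146 to -0.0266 in line 1151 (3 pairs) and -0.152 to 0.19 in line 2838 (18 pairs). With the replicate number as a block, the 1151 call of Hmga2 was lost (adjusted p = 0.0627), 6 of the 10 genes stayed called, and in line 2838 with libraries as the unit 289 genes and 1 of the 10, Hmga2, were called. Depth was unknown, so low values such as those of Ovol1, Esrp1 and Grhl2 could not be told from absence.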
